A study of Sus scrofa domesticus with 9 samples.

Results

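The genes described here carry out DNA replication and entry into S phase. They were chosen by name, with no threshold on their values, as 54 genes of origin licensing, origin firing, the replication fork, nucleotide supply and the E2F and cyclin step. Of the 54 members, 19 had read counts in every library, in an authors' table of 1054 genes that were picked from the same comparison of PN with bottle feeding. Another 31 of the 35 members without such counts had only a mean level in the authors' table of 16223 genes, and PCNA, FEN1, RRM2 and CCNA2 were matched in neither table.

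Liver RNA-Seq was performed on 3 bottle-fed Yorkshire piglets and 6 given parenteral nutrition (PN), all delivered preterm by caesarean section and killed on day of life 15. Bottle-fed piglets received sow milk replacer and were weaned from their initial PN within days, whereas PN piglets stayed on intravenous nutrition with a soybean oil lipid emulsion and were gavaged each day with a vehicle of medium chain triglycerides. The groups came from separate litters, so litter, gavage and feeding cannot be told apart. The authors left out a PN library as an outlier, which the paper's text does not number. It was taken here to be PN 5, which was left out of the main comparison. The values of PN 5 for the members are given beside the others.

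Before a cell can copy its DNA, the origin recognition complex, CDC6 and CDT1 load the MCM helicase onto replication origins during G1. Kinases then recruit CDC45 and the GINS complex, the helicase starts to unwind DNA, and polymerases copy the strands. Many of these genes are transcribed from E2F-responsive promoters as cells approach S phase, and most mature hepatocytes are quiescent while the liver of a growing newborn still adds cells.

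Library totals implied by FPKM (fragments per kilobase of exon and per unit of library total) were 17106838 to 24025142 in bottle-fed and 17337946 to 23421807 in PN livers. The 1054 genes held 6.48% to 7.17% of these totals in bottle-fed and 7.03% to 9.37% in PN livers. The tissue label was checked against 13 hepatocyte markers, of which 12 had an authors' mean of at least 1000 normalized counts, from HNF4A at 3927 to ALB at 1886800, while SERPINA1 stood at 28.9.

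All 19 members with counts were lower in PN than in bottle-fed livers, with a median log2 fold change of -1.50. Their log2 fold changes of PN against bottle-fed ranged from -2.51 for CDC6 to -1.01 for CDC45. All 19 passed edgeR's quasi-likelihood test, and the largest adjusted p was 0.018, for DNA2. In each of the 19, every PN value lay below every bottle-fed value, with or without PN 5. Because the table holds genes picked from this contrast, these counts are a description. Over its 1054 genes, 45.6% were called lower and 54.1% higher, the PN values lay below all bottle-fed values for 41.6% over 8 libraries and 41.0% over 9, and all 1054 passed the test over 9 libraries. The 481 genes called lower had a median log2 fold change of -1.48, close to that of the members. In bulk liver, fewer cells in S phase and less of these mRNAs per cell cannot be told apart.

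Summed over the 19 members, the normalized counts were 8872, 8586 and 6889.7 in bottle-fed 1 to 3. The same sum was 2689, 3161, 2669, 3098, 3570.3 and 3436 in PN 1 to PN 6. The 5 PN livers of the main comparison therefore held 37.1% ± 4.04 (SD, n = 5) of the bottle-fed mean, and PN 5 held 44.0%. Bottle-fed 3 was the lowest bottle-fed liver in 16 of 19 members, and in no member was it the highest. PN 1 was the lowest of the 6 PN livers in 9 members, PN 6 was the highest in 7, and PN 5 was the highest in 6 but the lowest in 3. The spread among the 5 PN livers, as a coefficient of variation, had a median of 23.4% over the members, beside 35.7% over all 1054 genes.

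**Figure D1:**
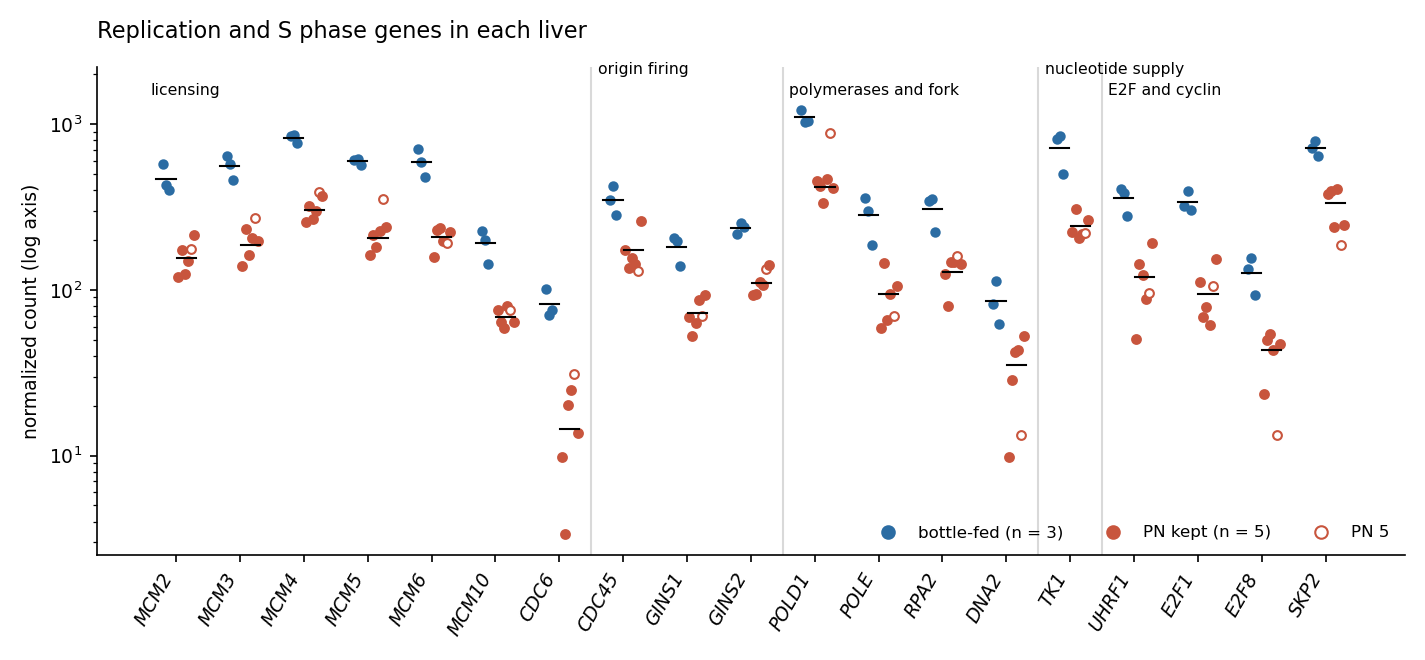
Normalized count on a log axis (vertical) of each of the 19 members (horizontal, ordered by role). Filled circles are single livers, the open circle is PN 5 and black bars are group means, with PN 5 outside the PN mean. Every PN circle lies below every bottle-fed circle of its gene.

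**Figure D2:**
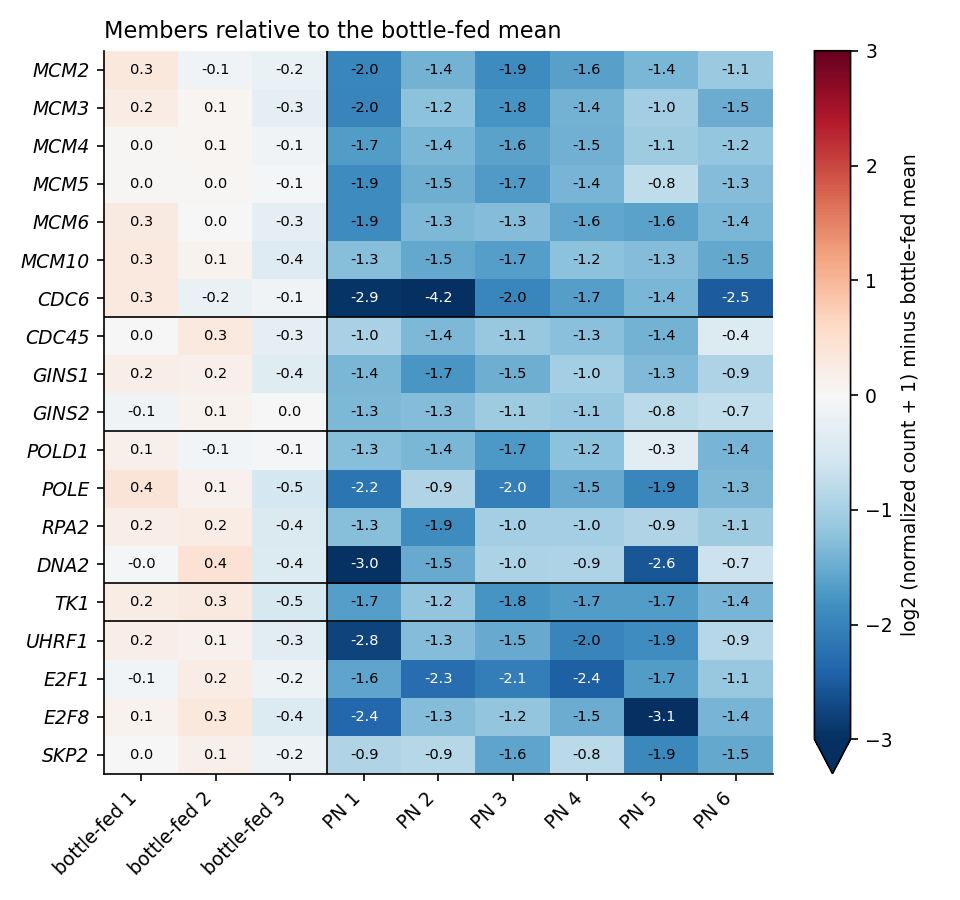
Each cell gives log2 of the normalized count plus 1 in 1 liver minus the bottle-fed mean of that gene, for the 19 members (rows) and 9 livers (columns). PN cells run from -4.23 for CDC6 in PN 2 to -0.31 for POLD1 in PN 5, and bottle-fed cells from -0.54 for POLE in bottle-fed 3 to 0.44 for DNA2 in bottle-fed 2.

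The promoters were read from the pig genome, because E2F factors bind such genes at short GC-rich sites. In the 250 bases before the RefSeq gene start, a match to TTCCCGC or TTCGCGC or TTGCCGC or TTGGCGC on either strand, with overlapping matches counted once, was found in 5 of the 19 members, or 26.3%. The share was 25.9% over all 54 members and 10.9% over 20638 protein-coding genes. At least 2 such matches were found in 4 of the 19, or 21.1%, beside 1.14% of protein-coding genes. The CCAAT box was present in 10 of 19, or 52.6%, beside 32.0% of protein-coding genes, and the GC box GGGCGG in 11, or 57.9%, beside 44.5%. The CHR element, TTTGAA or TTCGAA on either strand, was present in 3, or 15.8%, beside 14.4%. Median GC content was 56.8% in the 19 and 57.2% in all protein-coding genes.

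All 5 promoters with an E2F match are shown, with the matches in capitals, because they are the windows among these members where the letters of an E2F site can be seen. They are RPA2 at chr6:85045900-85046149 on the minus strand, POLE at chr14:22797896-22798145 on the plus strand, SKP2 at chr16:21463020-21463269 on the plus strand, MCM6 at chr15:15923388-15923637 on the plus strand and MCM3 at chr7:46104426-46104675 on the minus strand, all in Sscrofa11.1 and written 5′ to 3′ in the direction of the gene.
RPA2: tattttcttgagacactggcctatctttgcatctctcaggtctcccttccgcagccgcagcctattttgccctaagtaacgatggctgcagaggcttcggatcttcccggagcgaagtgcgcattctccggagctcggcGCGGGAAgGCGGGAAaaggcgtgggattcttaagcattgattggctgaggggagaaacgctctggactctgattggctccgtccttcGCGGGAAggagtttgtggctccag
POLE: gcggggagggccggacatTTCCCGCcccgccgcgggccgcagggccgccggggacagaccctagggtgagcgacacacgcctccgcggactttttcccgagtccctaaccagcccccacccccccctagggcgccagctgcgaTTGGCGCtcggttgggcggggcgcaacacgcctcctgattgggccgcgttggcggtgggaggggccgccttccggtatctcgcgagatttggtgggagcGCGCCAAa
SKP2: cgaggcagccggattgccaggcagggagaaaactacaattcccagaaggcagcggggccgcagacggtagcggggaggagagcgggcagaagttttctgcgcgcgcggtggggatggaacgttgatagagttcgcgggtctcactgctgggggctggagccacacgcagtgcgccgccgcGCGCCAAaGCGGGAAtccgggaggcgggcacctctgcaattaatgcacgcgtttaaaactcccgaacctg
MCM6: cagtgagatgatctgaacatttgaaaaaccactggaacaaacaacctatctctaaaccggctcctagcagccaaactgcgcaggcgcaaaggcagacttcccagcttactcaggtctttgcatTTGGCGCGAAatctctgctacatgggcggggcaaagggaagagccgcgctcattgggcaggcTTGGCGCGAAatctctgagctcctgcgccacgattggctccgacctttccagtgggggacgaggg
MCM3: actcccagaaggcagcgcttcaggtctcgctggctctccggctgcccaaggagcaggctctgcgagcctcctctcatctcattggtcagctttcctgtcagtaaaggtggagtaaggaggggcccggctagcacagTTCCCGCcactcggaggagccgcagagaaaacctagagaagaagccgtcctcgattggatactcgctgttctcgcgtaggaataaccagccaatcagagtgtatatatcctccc
RPA2 had 3 matches, all read on the opposite strand as GCGGGAA, the farthest starting 111 and the nearest 24 bases before the gene start. POLE also had 3, from 232 to 8 bases before the start. In SKP2 the 2 matches were separated by 1 base, at 70 and 62 bases before the start. MCM6 carried the same 10-base stretch, TTGGCGCGAA, at 127 and again at 65 bases before the start, and MCM3 had 1 match at 114 bases. The RefSeq start of MCM6 lies 6596 bases inside the gene as the counted annotation draws it, whereas for the other 4 the starts differ by 17 to 258 bases. The windows of MCM6 and SKP2 lie wholly inside the genes as counted. Where no match was found, starts differed by 150777 bases in TK1, 58936 in MCM10, 44022 in DNA2, 6350 in MCM2 and 2045 in UHRF1. In these genes, and in MCM6 and SKP2, the window may not be the promoter of the counted gene. MCM5 was not compared, and the rest without a match differed by 6 to 343 bases. Among these, the window of MCM4 also lies wholly inside the gene as counted. A match is a description of the letters and was not tested as a binding site.

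Origin licensing had the most members with counts, 7 of 16, and all 7 were lower in PN livers, with a median log2 fold change of -1.54. MCM2 to MCM6 encode 5 subunits of the ring-shaped replicative helicase. MCM2 (ENSSSCG00000011624, chr13:72630380-72657620, minus strand) had normalized counts of 573, 431 and 403 in bottle-fed livers and of 119, 174, 124, 150.1, 177 and 215 in PN 1 to PN 6. The PN livers spanned fewer counts than the bottle-fed livers and did not reach them. Relative to the mean their spread was not smaller, with a coefficient of variation of 25.2% in the 5 PN livers and 19.4% in bottle-fed livers. MCM2 had a log2 fold change of -1.59 (SE 0.27, adjusted p 0.000417).

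MCM3 (ENSSSCG00000025488, chr7:46084661-46104375, minus strand), whose promoter is shown above with 1 E2F match, had 646, 574 and 459 normalized counts in bottle-fed and 139, 235, 162, 206, 271 and 196 in PN livers. PN 5 was the highest PN liver and still below bottle-fed 3. MCM3 had a log2 fold change of -1.58 (SE 0.25, adjusted p 0.00028). MCM4 (ENSSSCG00000006273, chr4:79674737-79687307, minus strand) had 845, 862 and 766 normalized counts in bottle-fed and 256, 319.8, 269, 300.2, 390.4 and 368 in PN livers. Both groups were tight, and the log2 fold change was -1.45 (SE 0.22, adjusted p 0.000201). The counted interval of MCM4 also overlaps another RefSeq gene on the opposite strand.

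MCM5 (ENSSSCG00000022823, unplaced scaffold, plus strand) had 608, 613 and 569.7 normalized counts in bottle-fed livers, and 162, 214, 182, 227, 352 and 239.9 in PN livers. PN 5 stood above the other PN livers. Without it the log2 fold change was -1.54 (SE 0.23, adjusted p 0.000185), and with it -1.38. MCM6 (ENSSSCG00000035564, chr15:15917042-15985405, plus strand), with 2 E2F matches in its promoter, had 704, 588 and 477 normalized counts in bottle-fed and 157, 229.5, 235, 196, 191 and 223 in PN livers. PN 1 was the lowest of the PN livers, and PN 5 lay among the rest. For MCM6 the log2 fold change was -1.50 (SE 0.24, adjusted p 0.000298).

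Per gene length, the 5 MCM subunits kept much the same order from liver to liver. MCM4 had the highest FPKM in 8 of 9 libraries, the exception being PN 5, where MCM5 was highest. MCM6 had the lowest in 8, the exception being PN 3, where MCM2 was lowest. The mean FPKM of MCM4 was 10.9 ± 0.69 (SD, n = 3) in bottle-fed and 4.00 ± 0.58 (SD, n = 5) in PN livers, and that of MCM6 was 3.58 ± 0.69 and 1.26 ± 0.19. The ratio of the highest to the lowest subunit was between 2.54 and 4.75 in the 9 livers. The log2 fold changes of the 5 subunits lay within 0.14 of each other, less than the SE of any of them. FPKM depends on the exon length used, which for MCM6 was 8378 bases.

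**Figure D3:**
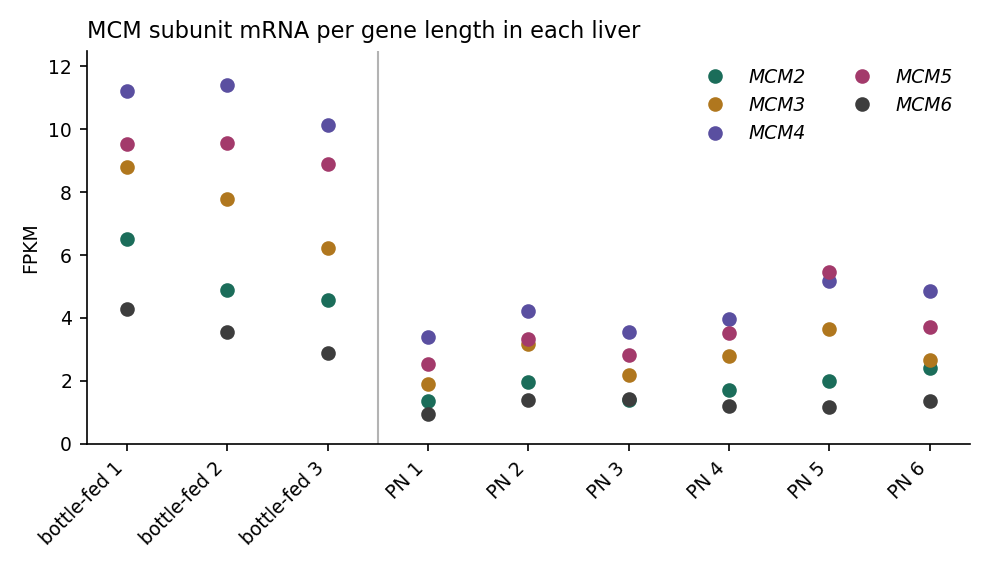
FPKM (vertical) of MCM2 to MCM6 in each of the 9 livers (horizontal), 1 point per gene and liver. MCM4 lies highest in 8 livers and MCM6 lowest in 8, and all PN points of a subunit lie below its bottle-fed points.

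CDC6 (ENSSSCG00000017471, chr12:22101282-22118593, minus strand), the ATPase that loads the helicase together with the origin recognition complex and CDT1, had 101, 70.3 and 76.0 normalized counts in bottle-fed livers and 9.75, 3.38, 20.2, 25.0, 31.1 and 13.7 in PN livers. Its log2 fold change of -2.51 (SE 0.51, adjusted p 0.00122) was the lowest of the members, and its lowest library, PN 2, rested on 4 raw counts. The coefficient of variation of CDC6 was 59.1% among the 5 PN livers. MCM10 (ENSSSCG00000035059, chr10:48480700-48582857, minus strand), which binds the helicase as origins fire, had 228, 201 and 144 normalized counts in bottle-fed and 76.1, 64.1, 58.7, 79.7, 75.4 and 64.0 in PN livers. The PN livers lay close together, and the log2 fold change was -1.48 (SE 0.28, adjusted p 0.00084). The counted interval of MCM10 overlaps OPTN on the same strand, so reads of that gene could enter its count.

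Among the origin firing genes, 3 of 7 had counts and all 3 were lower, with a median log2 fold change of -1.11. CDC45 (ENSSSCG00000010122, chr14:51133408-51158606, plus strand) joins the MCM ring in the active helicase. It had 347, 423 and 282 normalized counts in bottle-fed livers and 175, 135, 156, 144, 129.8 and 260.4 in PN livers. PN 6 was well above the other PN livers and came close to bottle-fed 3. CDC45 had a log2 fold change of -1.01 (SE 0.28, adjusted p 0.00529), and it was between -1.20 and -0.86 when each library was left out in turn.

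GINS1 and GINS2 are subunits of the GINS complex, the other partner of the MCM ring. GINS1 (ENSSSCG00000034913, chr17:31060631-31081629, plus strand) had 204, 198 and 139 normalized counts in bottle-fed and 68.3, 52.3, 63.5, 87.1, 69.9 and 93.7 in PN livers, with a log2 fold change of -1.31 (SE 0.30, adjusted p 0.00212). GINS2 (ENSSSCG00000040386, chr6:3218700-3250352, plus strand) had 217, 252 and 239 in bottle-fed and 92.7, 94.5, 112, 107, 134 and 140.5 in PN livers, with a log2 fold change of -1.11 (SE 0.26, adjusted p 0.00226). In both genes PN 6 was the highest PN liver. The interval counted for GINS2 overlaps GSE1 on the other strand.

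At the replication fork, 4 of 18 members had counts and all 4 were lower, with a median log2 fold change of -1.33. POLD1 (ENSSSCG00000003216, chr6:55247861-55272166, plus strand) encodes the catalytic subunit of DNA polymerase delta, which copies the lagging strand. Its normalized counts were 1215, 1035 and 1046 in bottle-fed livers and 453, 424, 334, 469.8, 883 and 415 in PN livers. PN 5 was far above the other PN livers, although still under all bottle-fed livers. The log2 fold change was -1.39 (SE 0.21, adjusted p 0.000236) without PN 5 and -1.15 (adjusted p 0.00379) with it.

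POLE (ENSSSCG00000033051, chr14:22798192-22853547, plus strand), the catalytic subunit of the leading-strand polymerase epsilon, had 359, 299.7 and 187 normalized counts in bottle-fed livers and 58.5, 146, 65.4, 94.5, 69.9 and 106 in PN livers. Bottle-fed 3 and PN 2 were the closest livers of opposite groups. POLE had a log2 fold change of -1.58 (SE 0.34, adjusted p 0.00163). Both catalytic subunits were lower, and in PN 5 the 2 genes stood apart, POLD1 at the top of the PN group and POLE in its lower part.

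RPA2 (ENSSSCG00000003583, chr6:85031578-85045916, minus strand), part of the complex that coats single-stranded DNA, had 346, 352 and 223 normalized counts in bottle-fed and 124, 80.2, 148, 148, 161 and 143 in PN livers. RPA2 had a log2 fold change of -1.25 (SE 0.29, adjusted p 0.0021), and its promoter had 3 E2F matches like that of POLE. DNA2 (ENSSSCG00000010240, chr14:71549815-71651089, minus strand), a nuclease and helicase that trims Okazaki fragments, was one of the lowest members, at 81.8, 113 and 62.5 normalized counts in bottle-fed and 9.75, 28.7, 42.3, 43.5, 13.3 and 52.5 in PN livers. Although the groups did not overlap, PN 6 lay near bottle-fed 3. Its log2 fold change was -1.28 (SE 0.46, adjusted p 0.018), and without bottle-fed 2 it was -1.03 and no longer passed (adjusted p 0.0879). The interval of DNA2 overlaps SLC25A16 on the same strand.

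For nucleotide supply, TK1 was the only member with counts, of 4 listed. TK1 (ENSSSCG00000037120, chr12:3635220-3795917, plus strand) is the thymidine kinase that salvages thymidine in S phase. Its normalized counts were 817, 851 and 499.9 in bottle-fed livers and 222, 308, 205, 219, 221 and 265 in PN livers. Bottle-fed 3 was well below the other bottle-fed livers and still above PN 2, the highest PN liver. The log2 fold change was -1.57 (SE 0.25, adjusted p 0.000308). The interval counted as TK1 spans 8 other RefSeq genes, 4 of them on the same strand, and these include SOCS3 and BIRC5, so its count is uncertain as a measure of TK1 alone.

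Of the 9 genes listed under the E2F and cyclin step, E2F1, E2F8, UHRF1 and SKP2 had counts. All 4 were lower, with a median log2 fold change of -1.56. The cyclins CCNE1, CCNE2 and CCNA2, the kinase CDK2 and E2F2 had no counts per library. E2F1 (ENSSSCG00000007268, chr17:37178598-37189841, minus strand) is a transcriptional activator of S phase genes. It had 321, 395 and 304 normalized counts in bottle-fed and 112, 68.3, 78.9, 61.2, 105 and 153 in PN livers. After CDC6, it had the lowest log2 fold change of the members, -1.85 (SE 0.32, adjusted p 0.000535). E2F8 (ENSSSCG00000013352, chr2:40178176-40194941, plus strand), an atypical E2F that represses E2F targets, had 133, 156 and 92.7 in bottle-fed and 23.4, 49.8, 53.9, 43.5, 13.3 and 46.8 in PN livers. E2F8 had a log2 fold change of -1.55 (SE 0.35, adjusted p 0.00192), so that the activator and the repressor were lower together.

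UHRF1 (ENSSSCG00000013517, chr2:73898085-73935682, minus strand) recognizes hemimethylated DNA behind the fork and recruits the maintenance methyltransferase. It had 404, 384 and 280.2 normalized counts in bottle-fed and 50.7, 143, 122, 88.0, 95.4 and 193 in PN livers. The PN values of UHRF1 were widely spread, with a coefficient of variation of 45.3%, and the log2 fold change was -1.58 (SE 0.36, adjusted p 0.00212). Its interval overlaps ARRDC5 on the other strand. SKP2 (ENSSSCG00000016835, chr16:21463012-21502550, plus strand), the ubiquitin ligase subunit that marks the inhibitor p27 for destruction, had 723, 788 and 641 in bottle-fed and 381, 392, 239, 409, 187 and 248 in PN livers. SKP2 was among the members with the smaller differences, with a log2 fold change of -1.10 (SE 0.25, adjusted p 0.00203).

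Among members with counts, each gene listed under licensing had a lower log2 fold change than each listed under origin firing. This order depends on the listing of MCM10, which binds the helicase as origins fire and had -1.48, below MCM4 at -1.45. The ranges of the fork genes and of the E2F and cyclin genes overlapped with both. Licensing genes ran from -2.51 to -1.45 and fork genes from -1.58 to -1.25. The E2F and cyclin genes, with no cyclin among those counted, ran from -1.85 to -1.10 and origin firing genes from -1.31 to -1.01. The differences between roles were not tested. Per gene length, TK1 had the highest bottle-fed mean of the members, at 17.2 ± 4.62 FPKM (SD, n = 3), subject to the doubt over its reads, followed by POLD1 at 11.3 ± 1.06, then SKP2, then MCM4 at 10.9 ± 0.69. POLD1, SKP2 and MCM4 did not differ from each other beyond their spread. DNA2 was lowest, at 0.56 ± 0.17 FPKM.

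For the 31 members with only a mean level, no direction is given here, since the columns that compare the groups were not used and the libraries behind the mean are not stated. For some genes with counts, the authors' mean differs from that over the libraries. For example, CCND3 had an authors' mean of 1355, beside 412 in bottle-fed livers and 1177 over the 6 PN livers. The means below should therefore not be set beside the counts per library. Their authors' means ran from 47.0 normalized counts for CCNE1, a cyclin that drives S phase entry, to 1488 for RRM1, the large subunit of ribonucleotide reductase, with a median of 181 at CDT1. MCM7, the helicase subunit outside the table with counts, stood at 1110.0, above the authors' means of MCM2 to MCM6. The clamp loader subunits RFC2 and RFC5 stood at 813 and 389.8, the ligase LIG1 at 487 and the single-strand binding subunit RPA1 at 402. TYMS, which makes thymidylate anew, stood at 368, CDK2, the kinase partner of cyclin E, at 312, and GMNN, the inhibitor of CDT1, at 311.

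Other replication genes were listed apart from the members, and 8 of these 40 had counts, all 8 called lower, with log2 fold changes from -2.55 to -1.07. PCLAF, which binds the sliding clamp, fell from 564 ± 158 normalized counts (SD, n = 3) to 96.4 ± 32.5 (SD, n = 5), a log2 fold change of -2.55 (SE 0.33, adjusted p 7.67e-05). The histone chaperones ASF1B and CHAF1A, which package new DNA, had log2 fold changes of -1.67 and -1.29. ZNF367 had a log2 fold change of -1.67. Of 28 mitosis genes, 4 had counts and all 4 were called lower, from CDK1 at -1.33 to TPX2 at -0.95. The PN and bottle-fed values of CDK1 overlapped, at 162 in PN 3 and 160.4 in bottle-fed 3. The genes of both lists come from the table picked from this contrast, where 45.6% of 1054 genes were called lower and 54.1% higher. Their counts of calls are therefore a description.

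Of 33 genes that control the passage from G1 to S phase, 5 had counts, and these moved in both directions, 3 called lower and 2 higher. CDKN1A, which encodes the kinase inhibitor p21, had 271, 269 and 409 normalized counts in bottle-fed livers and 759.9, 870.0, 603, 583, 1964 and 1222 in PN livers. It was higher in every PN liver, highest in PN 5, with a log2 fold change of 1.35 (SE 0.30, adjusted p 0.00192). CCND3, a D-type cyclin, had 460.3, 373 and 401 in bottle-fed and 978, 1013, 1054, 983, 2187 and 845 in PN livers, with a log2 fold change of 1.24 (SE 0.22, adjusted p 0.000591). PN 5 stood far above the other PN livers in CCND3.

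Lower in PN livers were 2 inhibitors of the INK4 family and E2F7, a repressor related to E2F8 that was named after its values were seen, with a log2 fold change of -1.83. CDKN2C had 316 ± 15.6 normalized counts in bottle-fed and 148 ± 25.3 in PN livers, a log2 fold change of -1.10 (SE 0.25, adjusted p 0.00192). CDKN2D had a log2 fold change of -0.97 (SE 0.35, adjusted p 0.0175), its groups overlapped, and it no longer passed without bottle-fed 2 (adjusted p 0.0858) or bottle-fed 3 (adjusted p 0.0521). These genes come from the same picked table, so the share that changed in each direction is a description.

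**Figure D4:**
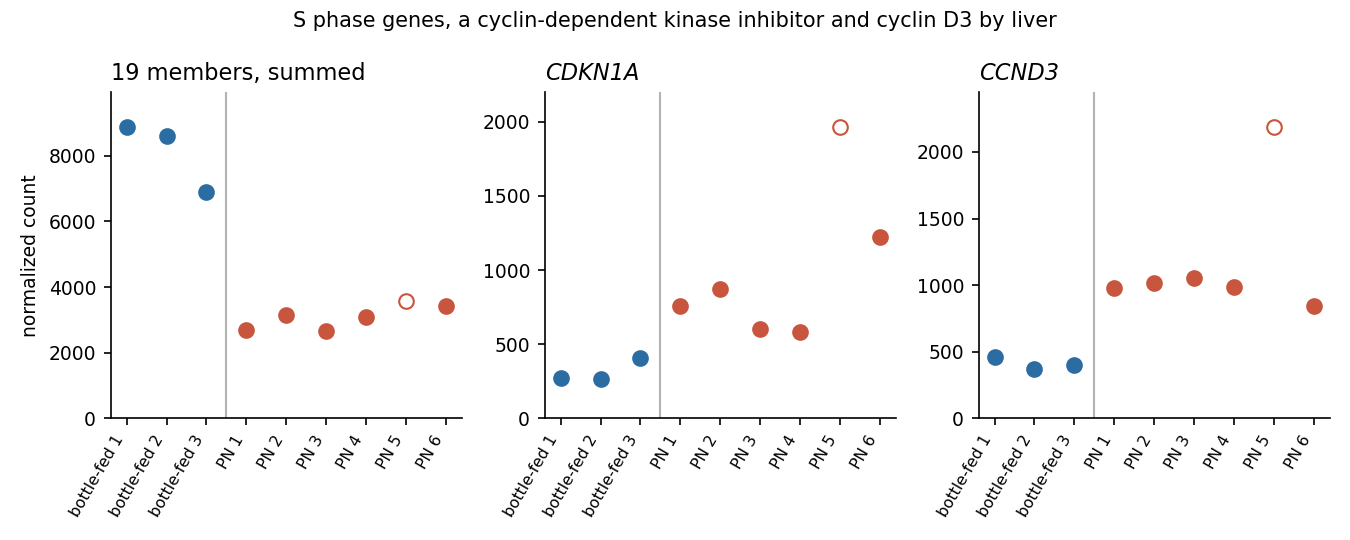
Normalized count (vertical) in each of the 9 livers (horizontal) of the 19 members summed, of CDKN1A and of CCND3, each axis starting at 0. The sum lies between 6889.7 and 8872 in bottle-fed and between 2669 and 3570.3 in PN livers, while all PN values of CDKN1A and CCND3 lie above the bottle-fed values.

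Markers of other liver cell types were set beside the members. Of 8 cholangiocyte markers, 4 had counts and all 4 were called higher in PN livers, beside 54.1% of the 1054 picked genes. EPCAM, SPP1, KRT7 and CLDN4 had log2 fold changes of 2.04, 1.94, 1.55 and 1.01. Their summed level was 1303 to 2590.3 normalized counts in bottle-fed livers, 3107 to 5148 in the 5 PN livers and 8691 in PN 5. CLDN4 made up most of these sums, with 1015 to 2352 in bottle-fed livers and 6475 in PN 5. Of 13 hepatocyte markers, CPS1 alone had counts. It was at 53930.2 ± 4316 (SD, n = 3) in bottle-fed and 27035 ± 12392 (SD, n = 5) in PN livers (adjusted p 0.0136). CPS1 in PN 3, at 48854, lay near bottle-fed 2 at 49685, while PN 1, 2, 4 and 6 lay between 18459 and 24225. PN 5 had 5289.5 normalized counts. The cholangiocyte markers and CPS1 differed between the same groups of livers as the members, and their part in the members' difference was not tested. The stellate marker DCN, the only 1 of 13 stellate and endothelial markers with counts, was called lower. Without bottle-fed 1 its log2 fold change was -0.53 (adjusted p 0.187). The myeloid marker CSF3R, the only 1 of 17 with counts, was called higher, with overlapping groups. Its call was lost without bottle-fed 1, bottle-fed 2 or PN 2 (adjusted p 0.0853, 0.0848 and 0.0888).

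Blood-forming cells, which a newborn liver can hold and which divide, could not be followed from liver to liver. None of 24 erythroid, 8 megakaryocyte or progenitor and 16 lymphoid markers had counts per library. The authors' means of 18 erythroid genes had a median of 40.8 normalized counts, from 3.55 for HBZ to 36076 for HBB. ALAS2 stood at 649, SLC4A1 at 71.2 and GATA1 at 12.3. The part of such cells in the members' difference was not tested.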

How the data were processed

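RNA-Seq was performed on liver of 3 bottle-fed and 6 PN piglets. The authors selected mRNA with poly-T beads, sequenced 150 bp paired-end reads, discarded low-quality reads, aligned the others with HISAT2 2.0.5 to the Sscrofa11.1 genome, and obtained gene counts from featureCounts 2.0.3. Whether counting used strand is not given in the sources used here. The deposited counts are raw reads per gene and library for 1054 genes that the authors picked from this contrast. The deposited normalized signal is these counts divided by 1 size factor per library by the authors, here called normalized counts. FPKM, also deposited by the authors, divides counts by exon length and library total, from which the implied totals were taken. A second table of 16223 genes gave the authors' mean signal, and 31 of 35 members were found there by gene ID through a table of gene names. Columns of both tables that hold the authors' own fold changes, standard errors, test statistics and p-values were not used.

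Counts were compared with edgeR 4.0.16 (quasi-likelihood test, R 4.3.3) over 8 libraries. PN 5, taken to be the library that the paper left out, was excluded. The authors' size factors were the offset, with no covariate, no filter and Benjamini-Hochberg adjustment over 1054 genes. A gene was called at an adjusted p under 0.05. The SE is the size of the log2 fold change over the square root of F. Alternatives were all 9 libraries, each library left out, library totals, TMM, filterByExpr, the replicate number as a block, DESeq2 1.42.0 with the same and with its own size factors, and exact permutation tests with pseudocounts of 1, 0.5 and 5. The scripts were tested on simulated data. The members, gene lists and tests were chosen with earlier results of these data known. All members with counts were named, and of each other list at most 4 genes with counts by the highest mean FPKM. E2F7 was named in addition, after its values were seen. Promoters are the 250 bases before the RefSeq start in the Sscrofa11.1 genome, which took the place of a promoter table, and 5 were shown by number of E2F matches.

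Each library came from a different piglet. Over 36 pairs of libraries the lowest chi-square was 71.8 per degree of freedom, so none was deposited again under another label. Depth limits CDC6 and DNA2 most, with raw counts down to 4 and 10.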

Additional observations from a re-analysis of the deposited data

Results flagged for a closer look

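In the 6 PN livers, 39 results were examined for 1 liver far from the rest (gap over range above 0.625), and 4 were found, where chance flags about 1 in 20. CDC45 in PN 6 was at 260.4 normalized counts, against 174.6 in the next liver (gap over range 0.657). POLD1 in PN 5 was at 882.9, against 469.8 (0.752). CCND3 in PN 5 was at 2187, against 1054 (0.844). CDKN2D in PN 6 was at 86.8, against 53.7 (0.753). PN 5 is taken to be the library that the authors left out, and CDC45 and POLD1 lay below every bottle-fed liver with these values included.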

How the results depend on the processing

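In the alternative fits on all 1054 genes, 932 to 1054 were called in either direction, so a kept call is a description. Of 342 values of single members under other settings, 338 kept their direction and side of the threshold, 4 lost the threshold and 0 reversed. All 4 were DNA2, at -1.03 without bottle-fed 2 and at -1.40, -1.42 and -1.27 in the exact permutation test with pseudocounts of 1, 0.5 and 5 (unadjusted p 0.0536, two-sided). The other 18 members had an exact p of 0.0179, the smallest that 56 splits of 8 libraries allow. Of 285 values of other named genes, E2F7 not among them, 7 lost the threshold and 0 reversed.

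With DESeq2's own size factors, taken from the 1054 genes alone, the members' median log2 fold change was -1.84, and the median of all genes shifted by -0.33. Leaving out each library in turn gave a members' median between -1.63 and -1.37 and a summed level between 34.5% and 38.9% of bottle-fed. In these fits 18 to 19 members and 8 of 8 other replication genes were called, beside 962 to 1042 of all 1054 genes in either direction. With the replicate block over libraries 1 to 3, 19 members were called, with a median of -1.55, and 932 genes beside 983 without the block on the same 6 libraries. Same-numbered libraries did not deviate together (r -0.045 to -0.019 over 3 pairs), beside -0.104 to 0.117 for pairs with different numbers. With so few pairs, these values cannot exclude a pairing. The groups came from separate litters. CPS1 no longer passed with the block (log2 fold change -0.84, adjusted p 0.115). With PN 5 included, the log2 fold change was -2.26 for CDC6, 1.66 for CDKN1A, 1.52 for CCND3, 2.38 for EPCAM and -1.12 for CHAF1A.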
